A study of Arabidopsis thaliana with 36 samples.

Results

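The 10 genes described here make aliphatic glucosinolates from methionine in Arabidopsis thaliana. They are BCAT4, BAT5, MAM1, MAM3, CYP79F1, CYP79F2, CYP83A1, SOT17, SOT18 and FMOGS-OX1. They were taken from the count table by their locus identifiers, which gave 10 of the 32678 genes with a row, and all 10 were among the 21356 genes that passed a filter on low counts. Messenger RNA was sequenced from whole seedlings of 4 genotypes: the double mutant wrky18 wrky40, each single mutant (wrky18, wrky40) and the Col-0 wild type (WT). WRKY18 and WRKY40 are related transcription factors of the immune response, and the labels name neither the alleles nor the number of lines used. Every genotype was sampled untreated (0 h) and after 1 h and 2 h with 1 µM flg22, a bacterial flagellin peptide recognised by the plant receptor FLS2. All seedlings were 12 days old and had grown under long days in MS medium with sucrose and the antibiotic claforan. The design text calls the replicates biological, with 3 libraries for each of the 12 groups and 36 in all. It does not say more of how they were raised, so p-values measure the spread between these libraries only. The flg22 was given by changing the medium, which is not described for untreated seedlings. An effect of flg22 therefore cannot be told apart from one of the fresh medium or of the time of day in any comparison of 1 h or 2 h with 0 h.

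Glucosinolates are sulphur-rich thioglucosides that plants of the cabbage order store and break down with myrosinases when tissue is damaged. The aliphatic ones start from methionine, whose side chain is first lengthened in a cycle that begins in the cytosol and continues in the chloroplast. BCAT4 removes the amino group of methionine, BAT5 carries the resulting oxo acid into the chloroplast, and the synthases MAM1 and MAM3 add a carbon in each turn. The core structure is then built by the cytochromes P450 CYP79F1 and CYP79F2, which turn chain-elongated methionine into aldoximes, and CYP83A1, which oxidises the aldoximes further. The sulfotransferases SOT17 and SOT18 complete the core by adding sulphate to the desulfoglucosinolate. FMOGS-OX1 oxidises the sulphur of the finished side chain. The MYB factors MYB28, MYB29 and MYB76 are the known activators of this set. A parallel branch makes indole glucosinolates from tryptophan through CYP79B2, CYP79B3, CYP83B1 and SOT16.

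Below are the 250 bases before the annotated start of 4 of the genes, chosen because SOT17 was the one gene of the 10 that rose by 2 h, because CYP79F1 and CYP79F2 are tandem copies whose falls differed in size, and because CYP83A1 was the one with a G-box. They were read 5′ to 3′ on the strand of the gene from the RefSeq TAIR10.1 genome, and capitals mark motif matches. In SOT17 (chr1:6398281-6398530, plus strand) the capitals GTCAA are the W-box core TTGAC, the sequence bound by WRKY factors, read on the other strand, 44 bases before the start. In CYP79F2 (chr1:5604794-5605043, plus strand) the core TTGAC stood 194 bases before the start, and in CYP79F1 (chr1:5608432-5608681, plus strand) no searched motif matched. In CYP83A1 (chr4:7992430-7992679, minus strand) the capitals are a G-box, CACGTG, 43 bases before the start.
SOT17: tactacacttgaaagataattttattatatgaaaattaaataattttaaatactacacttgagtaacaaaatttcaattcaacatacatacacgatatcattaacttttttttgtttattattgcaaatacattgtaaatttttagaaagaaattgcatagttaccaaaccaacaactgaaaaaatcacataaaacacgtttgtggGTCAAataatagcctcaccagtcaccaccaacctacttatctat
CYP79F1: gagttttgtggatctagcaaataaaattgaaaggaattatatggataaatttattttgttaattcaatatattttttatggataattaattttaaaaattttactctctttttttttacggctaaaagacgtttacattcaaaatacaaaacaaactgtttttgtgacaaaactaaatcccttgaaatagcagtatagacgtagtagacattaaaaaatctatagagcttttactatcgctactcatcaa
CYP79F2: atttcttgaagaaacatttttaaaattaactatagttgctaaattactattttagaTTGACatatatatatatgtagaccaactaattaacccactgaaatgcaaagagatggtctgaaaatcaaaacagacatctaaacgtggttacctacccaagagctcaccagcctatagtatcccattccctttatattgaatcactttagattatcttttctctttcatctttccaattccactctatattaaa
CYP83A1: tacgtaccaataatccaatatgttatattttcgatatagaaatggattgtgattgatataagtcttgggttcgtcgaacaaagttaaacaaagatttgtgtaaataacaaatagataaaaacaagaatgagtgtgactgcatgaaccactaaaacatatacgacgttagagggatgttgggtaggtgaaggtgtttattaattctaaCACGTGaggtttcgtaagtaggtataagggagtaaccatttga
On both strands of these 250-base windows, the core TTGAC was found in 2 of the 10 genes and in 44.9% of 27443 promoters. The longer W-box, TTGACC or TTGACT, contains the core and was found in SOT17 alone of the 10 and in 28.4% of all promoters. The G-box CACGTG was found in CYP83A1 alone of the 10 and in 6.49% of all promoters. With windows of 1000 bases the core was found in 6 of the 10 genes against 88.1% of all promoters. The longer W-box was found there in 3 of the 10 (CYP83A1, SOT17 and FMOGS-OX1) against 67.3%, and the G-box in BCAT4, MAM1 and CYP83A1 against 14.8%. A match describes letters only.

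The libraries held 17287229 to 38709715 counts. WRKY18 averaged 10.2 ± 2.04 CPM (read counts scaled to the size of the library, SD, n = 3) in untreated wrky18 and 24.1 ± 4.75 CPM in untreated WT, a log2 fold change of -1.24 ± 0.15, adjusted p = 3.43e-05 (edgeR) that was not called with only these groups in the fit (adjusted p = 0.357). WRKY40 averaged 37.1 ± 4.76 CPM in wrky40 and 346 ± 18.3 CPM in WT at 2 h. In the double mutant, compared with WT at 2 h, WRKY18 had a log2 fold change of -0.77 ± 0.14, adjusted p = 0.00029 and WRKY40 one of -3.12 ± 0.23, adjusted p = 4.83e-11 (± SE, edgeR quasi-likelihood test). All 6 shoot markers and all 8 root markers were detected in every group. The CPM of the 6 shoot markers summed to 27727 to 30942 at 0 h, 23374 to 28832 at 1 h and 20493 to 23577 at 2 h in WT libraries, and those of the 8 root markers to 2038 to 2122, 1617 to 1957 and 1409 to 1631 at the same times. Both sums were lower at 2 h than in any untreated WT library, and that of the root markers also at 1 h, as were most of the 10 genes. Single markers differed: in WT 2 of 6 shoot markers were called lower at 1 h and 6 at 2 h, 5 of 8 root markers were lower and 1 higher at 1 h, and 4 were lower and 2 higher at 2 h (EXPA7 and CASP1). Of all genes tested, 32% were lower and 28.8% higher at 1 h, and 35.1% lower and 36.7% higher at 2 h. The part of tissue make-up in the changes below was not tested. In RNA from whole seedlings, fewer cells of a type and less RNA per cell cannot be told apart.

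Levels per kilobase of annotated exon put CYP83A1 first among the 10 genes in untreated WT, at 93.9 ± 11.3 CPM per kb (SD, n = 3). MAM1 followed with 84.0 ± 11.1 and BCAT4 with 81.1 ± 10.7 CPM per kb, and the libraries of these 3 overlapped. MAM3 came next with 59.4 ± 7.52 CPM per kb, then SOT18 with 44.2 ± 4.93, and neither overlapped its neighbours in this order. CYP79F1, CYP79F2 and SOT17 lay close together at 23.7 ± 2.85, 23.4 ± 2.14 and 21.4 ± 1.68 CPM per kb, with overlapping ranges. FMOGS-OX1 and BAT5 were lowest, at 11.8 ± 1.54 and 11.7 ± 0.547 CPM per kb, and overlapped each other. After 2 h with flg22 the order in WT was another one. SOT17 stood first with 70.1 ± 10.9 CPM per kb, CYP83A1 was sixth with 16.8 ± 1.65, and CYP79F1 was last with 2.14 ± 0.612. The exon length of CYP79F1, 3272 bp, joins 2 annotated isoforms and exceeds its coding length of 1617 bp, so its level per kb may be understated.

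**Figure D1:**
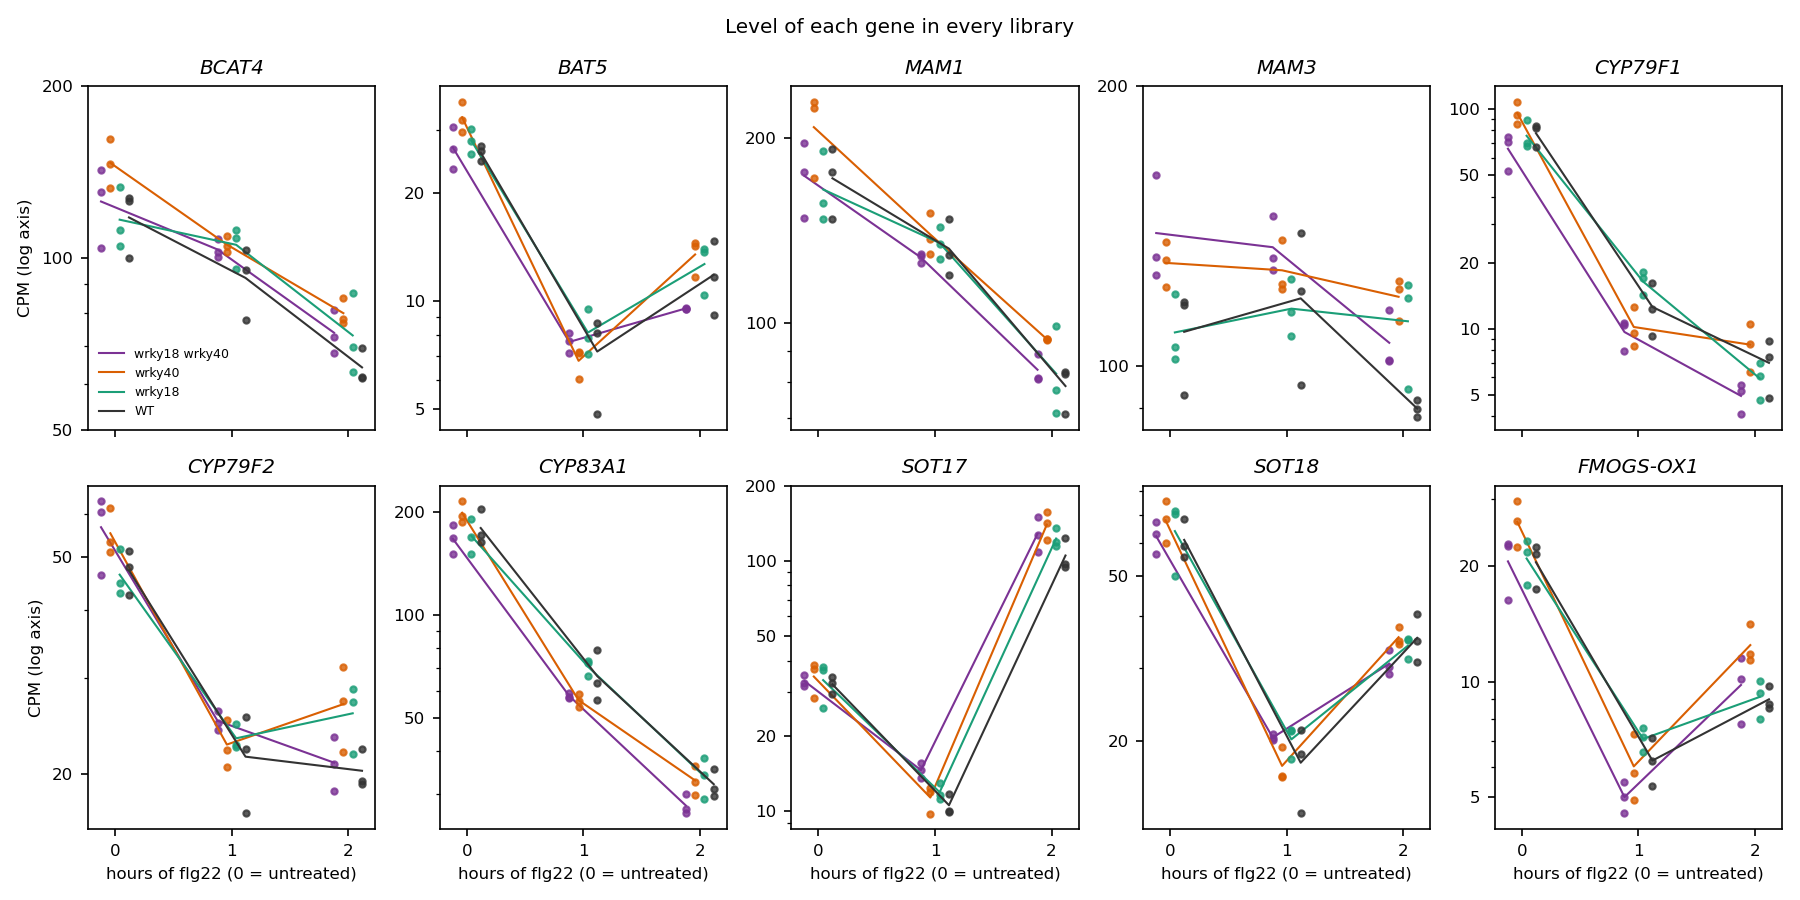
Level of each of the 10 genes in all 36 libraries, in CPM on a log axis, with 1 panel per gene, time in hours on the x axis and genotype by colour. Points are libraries and lines join the means of 3. CYP79F1 and CYP83A1 step down at both times in WT, SOT17 dips at 1 h and is highest at 2 h, and MAM3 stays within a narrow band.

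Most of the 10 genes were lower within 1 h of flg22. In WT, 9 of the 10 genes were lower at 1 h than at 0 h and none was higher (edgeR quasi-likelihood test, Benjamini-Hochberg adjusted p below 0.05 over all 21356 genes). Of all genes tested, 32% were lower in this comparison and 60.8% were called in either direction, so a call alone is common here. The sizes were less common: 7 of the 10 genes fell at least 2-fold, against 9.89% of all genes. The median log2 fold change of the 10 was -1.52, and that of all genes tested was -0.05. At 2 h, 9 of the 10 were lower than at 0 h (all genes 35.1%), 6 of them at least 2-fold (all genes 13%), and SOT17 was higher (all genes 36.7%). The median at 2 h was -1.13, and -0.01 over all genes. Scaling by total counts in place of TMM moved the median of all genes by -0.27 at 1 h and -0.28 at 2 h. Under it the share of higher genes among those called became 28.5% at 1 h, against 47.4% with TMM, and 36.5% at 2 h, against 51.1%. The 10 genes kept their directions in WT under it except MAM3 at 1 h, which was not called under either scaling.

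Of the 4 chain-elongation genes, 3 were lower at 1 h in WT (all genes 32%) and all 4 at 2 h (all genes 35.1%). At 1 h the transporter gene BAT5 was the one that fell at least 2-fold (all genes 9.89%). BCAT4 (AT3G19710, chr3:6846969-6849582) had 99.8, 127 and 126 CPM at 0 h, 77.9, 103 and 95.3 CPM at 1 h and 61.8, 61.5 and 69.4 CPM at 2 h in WT. The 1 h libraries overlapped those at 0 h, and all 3 at 2 h lay below both. Its log2 fold change against 0 h was -0.35 ± 0.12, adjusted p = 0.0116 at 1 h (± SE, edgeR quasi-likelihood test) and -0.87 ± 0.12, adjusted p = 1.32e-07 at 2 h. The 1 h call was lost when WT 1 h replicate 1, WT 0 h replicate 2 or WT 0 h replicate 3 was left out (adjusted p = 0.158, 0.0616 and 0.0529), within 4.73e-05 to 0.158 over all alternatives. In the 9 mutant libraries of each time it had 104 to 162 CPM (median 133) at 0 h, 95.8 to 112 CPM (median 105) at 1 h and 63.0 to 86.6 CPM (median 76.9) at 2 h, and over the 4 genotypes its change ran from -0.48 to -0.15 at 1 h and from -0.87 to -0.67 at 2 h. BCAT4 overlaps the neighbouring gene AT3G19700 by 307 bp, so reads there could be divided differently if strand was not used in counting.

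BAT5 (AT4G12030, chr4:7210807-7213376) had 24.6, 26.2 and 27.0 CPM at 0 h, 4.83, 8.69 and 8.13 CPM at 1 h and 14.7, 9.11 and 11.7 CPM at 2 h in WT. Every 1 h and 2 h library lay below every untreated one, and every 2 h library above every 1 h one. Its level was 3.64-fold lower at 1 h (log2 fold change -1.86 ± 0.16, adjusted p = 9.63e-12) and 2.21-fold lower at 2 h (-1.14 ± 0.15, adjusted p = 7.33e-08), and it rose by 0.72 ± 0.17 between the treated times (adjusted p = 0.00055). Over the 9 mutant libraries of a time BAT5 had 23.3 to 35.99 CPM (median 29.6) at 0 h, 6.07 to 9.46 CPM (median 7.19) at 1 h and 9.49 to 14.5 CPM (median 11.6) at 2 h, and over the 4 genotypes its change ran from -2.26 to -1.78 at 1 h and from -1.50 to -1.14 at 2 h.

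MAM1 (AT5G23010, chr5:7703041-7706973), a synthase of short-chain elongation, had 148, 193 and 176 CPM at 0 h, 119.6, 148 and 129 CPM at 1 h and 71.1, 82.5 and 83.2 CPM at 2 h in WT. The 1 h libraries touched the untreated range and the 2 h libraries lay wholly below it. It fell by 0.38 at 1 h and by 1.13 at 2 h on the log2 scale (edgeR adjusted p = 0.00687 and 9.39e-10). The 1 h call was lost without WT 1 h replicate 1 or WT 0 h replicate 2 (adjusted p = 0.0739 and 0.0570, range over all alternatives 1.83e-05 to 0.0739). The 9 mutant libraries of each time held MAM1 at 148 to 229.7 CPM (median 176) at 0 h, 125 to 151 CPM (median 129.6) at 1 h and 71.4 to 98.9 CPM (median 89.1) at 2 h, and over the 4 genotypes its change ran from -0.58 to -0.29 at 1 h and from -1.15 to -0.999 at 2 h. MAM3 (AT5G23020, chr5:7718118-7721866), which can form chains of all lengths, stands 11144 bp further along the same strand and moved least of the 10. It had 92.8, 116 and 117 CPM at 0 h, 95.3, 139 and 120.3 CPM at 1 h and 87.9, 91.9 and 89.8 CPM at 2 h in WT. Its 1 h libraries overlapped the untreated ones, with a log2 fold change of 0.12 (95% interval -0.11 to 0.35, adjusted p = 0.377), and under total-count scaling the sign turned to -0.15. At 2 h it was lower than at 0 h by a log2 fold change of -0.27 ± 0.11, adjusted p = 0.0307. That call was lost without any one of WT 2 h replicate 1, WT 2 h replicate 3, WT 0 h replicate 2 and WT 0 h replicate 3 (adjusted p from 0.061 to 0.123, range over all alternatives 0.000215 to 0.123), and without WT 1 h replicate 1 MAM3 was called higher at 1 h, by 0.28 (adjusted p = 0.040). In the 9 mutant libraries of each time it had 102 to 160.5 CPM (median 125) at 0 h, 107 to 145 CPM (median 124) at 1 h and 94.4 to 123 CPM (median 115) at 2 h, and over the 4 genotypes its change ran from -0.05 to 0.12 at 1 h and from -0.39 to 0.04 at 2 h.

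In each of the 4 genotypes CYP79F1 had the largest fall of the 10 genes at both times. CYP79F1 (AT1G16410, chr1:5608682-5612064), which acts on methionine of all chain lengths, had 67.0, 82.5 and 83.7 CPM at 0 h, 9.23, 16.2 and 12.3 CPM at 1 h and 8.75, 4.81 and 7.41 CPM at 2 h in WT. The 3 times did not overlap one another. Against 0 h it was 6.23-fold lower at 1 h (log2 fold change -2.64 ± 0.20, adjusted p = 3.1e-13) and 11.2-fold lower at 2 h (-3.49 ± 0.21, adjusted p = 6.57e-16). In the double mutant it had 52.4, 70.9 and 74.7 CPM at 0 h, 7.91, 10.6 and 10.4 CPM at 1 h and 5.20, 4.09 and 5.54 CPM at 2 h, a log2 fold change of -3.73 ± 0.22 at 2 h. Over the 4 genotypes its 2 h change ran from -3.73 to -3.49, and its 1 h change from -3.23 to -2.21.

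CYP79F2 (AT1G16400, chr1:5605044-5607498), the tandem copy that acts on long chains, ends 1183 bp before CYP79F1 starts on the same strand. It had 42.7, 47.9 and 51.3 CPM at 0 h, 16.9, 25.4 and 22.2 CPM at 1 h and 19.1, 19.3 and 22.2 CPM at 2 h in WT. The treated libraries lay below every untreated one, while 1 h and 2 h overlapped. Its log2 fold change was -1.14 ± 0.14, adjusted p = 1.04e-08 at 1 h and -1.23 ± 0.14, adjusted p = 1.57e-09 at 2 h, with no call between them (-0.08, 95% interval -0.37 to 0.20). The coding sequences of this pair were 91.9% identical, with a longest shared run of 100 bases and 54 of the 1568 windows of 50 bases in CYP79F1 also found in CYP79F2, so reads from those stretches may not have been assigned to the right gene, and the values of both are uncertain to that extent. In the 9 mutant libraries of each time CYP79F2 had 42.9 to 63.5 CPM (median 51.7) at 0 h, 20.6 to 26.1 CPM (median 24.1) at 1 h and 18.6 to 31.5 CPM (median 23.4) at 2 h, and over the 4 genotypes its change ran from -1.30 to -0.999 at 1 h and from -1.44 to -0.85 at 2 h. CYP83A1 (AT4G13770, chr4:7990429-7992429), the next enzyme, had 163, 204 and 171 CPM at 0 h, 56.6, 78.8 and 63.4 CPM at 1 h and 35.6, 29.6 and 31.0 CPM at 2 h in WT. Again the 3 times did not overlap. It was 2.71-fold lower at 1 h (-1.44 ± 0.11, adjusted p = 6.36e-13) and 5.60-fold lower at 2 h (-2.49 ± 0.12, adjusted p = 9.23e-19). In the 9 mutant libraries of each time it had 150.4 to 215 CPM (median 183) at 0 h, 54.0 to 73.3 CPM (median 58.9) at 1 h and 26.3 to 38.3 CPM (median 29.9) at 2 h, and over the 4 genotypes its change ran from -1.82 to -1.27 at 1 h and from -2.59 to -2.33 at 2 h.

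**Figure D2:**
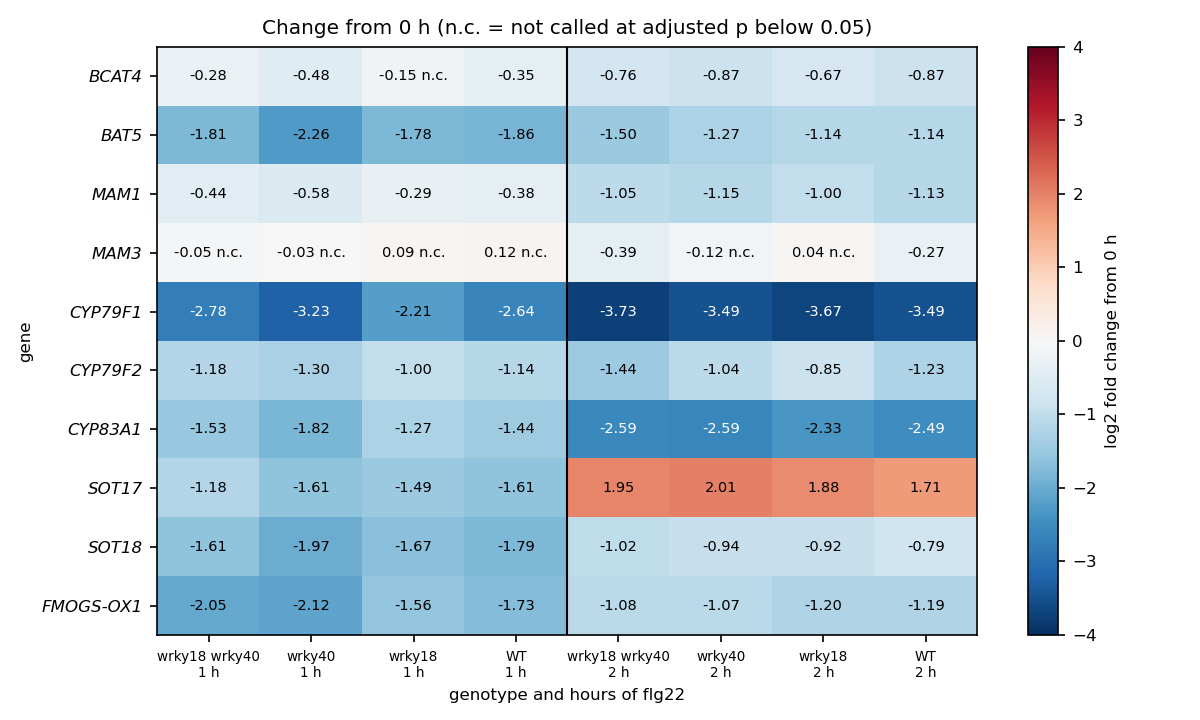
Log2 fold change against 0 h of the 10 genes (rows) in each genotype at 1 h (left 4 columns) and at 2 h (right 4 columns), printed in each cell and shown by colour from blue (lower) to red (higher), where n.c. marks values not called. Falls of CYP79F1 and CYP83A1 are larger at 2 h than at 1 h in WT, and SOT17 is below 0 at 1 h and above 0 at 2 h in all 4 genotypes.

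The sulfotransferases of the last core step parted from each other at 2 h. SOT17 (AT1G18590, chr1:6398531-6400029) had 29.5, 34.5 and 32.4 CPM at 0 h, 10.1, 11.7 and 9.92 CPM at 1 h and 124, 94.5 and 96.8 CPM at 2 h in WT. Every 1 h library lay below, and every 2 h library above, all untreated ones. It was 3.04-fold lower at 1 h (log2 fold change -1.61 ± 0.15, adjusted p = 2.93e-11) and 3.27-fold higher at 2 h (1.71 ± 0.14, adjusted p = 7.23e-13), a rise of 3.31 ± 0.15 within the second hour. SOT17 was also called lower at 1 h and higher at 2 h in each mutant. SOT17 had 31.5, 35.1 and 32.6 CPM at 0 h, 14.6, 15.6 and 13.6 CPM at 1 h and 149, 108 and 127 CPM at 2 h in the double mutant. In wrky18 it had 37.7, 36.7 and 25.9 CPM at 0 h, 11.7, 12.9 and 11.1 CPM at 1 h and 136, 115 and 118 CPM at 2 h. In wrky40 it had 37.1, 38.2 and 28.3 CPM at 0 h, 9.75, 11.9 and 12.4 CPM at 1 h and 121, 156 and 141 CPM at 2 h. In each genotype the 3 times were fully separated, and the 2 h change ran from 1.71 in WT to 2.01 in wrky40. A fall at 1 h followed by a rise above the untreated level at 2 h was called in WT for 1.39% of all genes tested.

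SOT18 (AT1G74090, chr1:27862814-27864193) had 55.5, 68.6 and 59.0 CPM at 0 h, 13.3, 21.2 and 18.5 CPM at 1 h and 40.5, 31.0 and 34.7 CPM at 2 h in WT. All treated libraries lay below the untreated ones, and those at 2 h above those at 1 h. Its log2 fold change was -1.79 ± 0.14, adjusted p = 3.11e-13 at 1 h and -0.79 ± 0.13, adjusted p = 2.45e-06 at 2 h. The 9 mutant libraries held SOT18 at 49.9 to 75.7 CPM (median 67.3) at 0 h, 16.4 to 21.2 CPM (median 20.03) at 1 h and 28.9 to 37.6 CPM (median 34.1) at 2 h, and over the 4 genotypes its change ran from -1.97 to -1.61 at 1 h and from -1.02 to -0.79 at 2 h. Its gene overlaps AT1G74088 by 9 bp. FMOGS-OX1 (AT1G65860, chr1:24498954-24502776), the side-chain S-oxygenase, had 17.5, 21.5 and 22.5 CPM at 0 h, 5.33, 7.15 and 6.19 CPM at 1 h and 9.72, 8.53 and 8.73 CPM at 2 h in WT. It too was lowest at 1 h, with no overlap between times. Its log2 fold change was -1.73 ± 0.16, adjusted p = 3.59e-11 at 1 h and -1.19 ± 0.15, adjusted p = 2.61e-08 at 2 h, and the rise of 0.54 ± 0.17 between them (adjusted p = 0.00733) was not called without WT 1 h replicate 1 (adjusted p = 0.086, range over all alternatives 0.00412 to 0.0860). FMOGS-OX1 had in the 9 mutant libraries of a time 16.3 to 29.6 CPM (median 22.6) at 0 h, 4.53 to 7.57 CPM (median 5.79) at 1 h and 7.73 to 14.1 CPM (median 10.2) at 2 h, and over the 4 genotypes its change ran from -2.12 to -1.56 at 1 h and from -1.20 to -1.07 at 2 h.

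Between 1 h and 2 h in WT, 4 of the 10 genes rose (all genes 27.9%) and 5 fell (all genes 23.9%). CYP79F1, BCAT4, CYP83A1 and MAM1 were lower at 1 h, lower at 2 h and lower again from 1 h to 2 h, a course called for 9.39% of all genes. FMOGS-OX1, SOT18 and BAT5 were lower at both times but rose from 1 h to 2 h, a course called for 2.68% of all genes. CYP79F2 was lower at both times with no call between them (13% of all genes), MAM3 was called at 2 h only (9.48%), and SOT17 reversed. BCAT4, CYP83A1 and MAM1 fell in the second hour in all 4 genotypes, and SOT17 and SOT18 rose in all 4. CYP79F1 had no call between 1 h and 2 h in wrky40 (-0.26, 95% interval -0.70 to 0.19), and BAT5 had none in the double mutant (0.31, -0.03 to 0.65). FMOGS-OX1 had none in wrky18 (0.37 ± 0.16), where it was called with only the groups compared and without wrky18 2 h replicate 1 (adjusted p = 0.0371 and 0.0386). MAM3 had none in wrky18 or wrky40 between 1 h and 2 h, and was not called there at 2 h against 0 h (0.04 ± 0.11 and -0.12 ± 0.11), though it was lower in wrky40 with total-count scaling (-0.41, adjusted p = 0.00366). CYP79F2 was not called between 1 h and 2 h in any genotype with all libraries fitted together. It was called higher in wrky40 without wrky40 2 h replicate 1 (0.38, adjusted p = 0.0310). In the double mutant it was called lower without double mutant 2 h replicate 3 (-0.38, adjusted p = 0.0481) and with only the groups compared (-0.26, adjusted p = 0.0284).

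**Figure D3:**
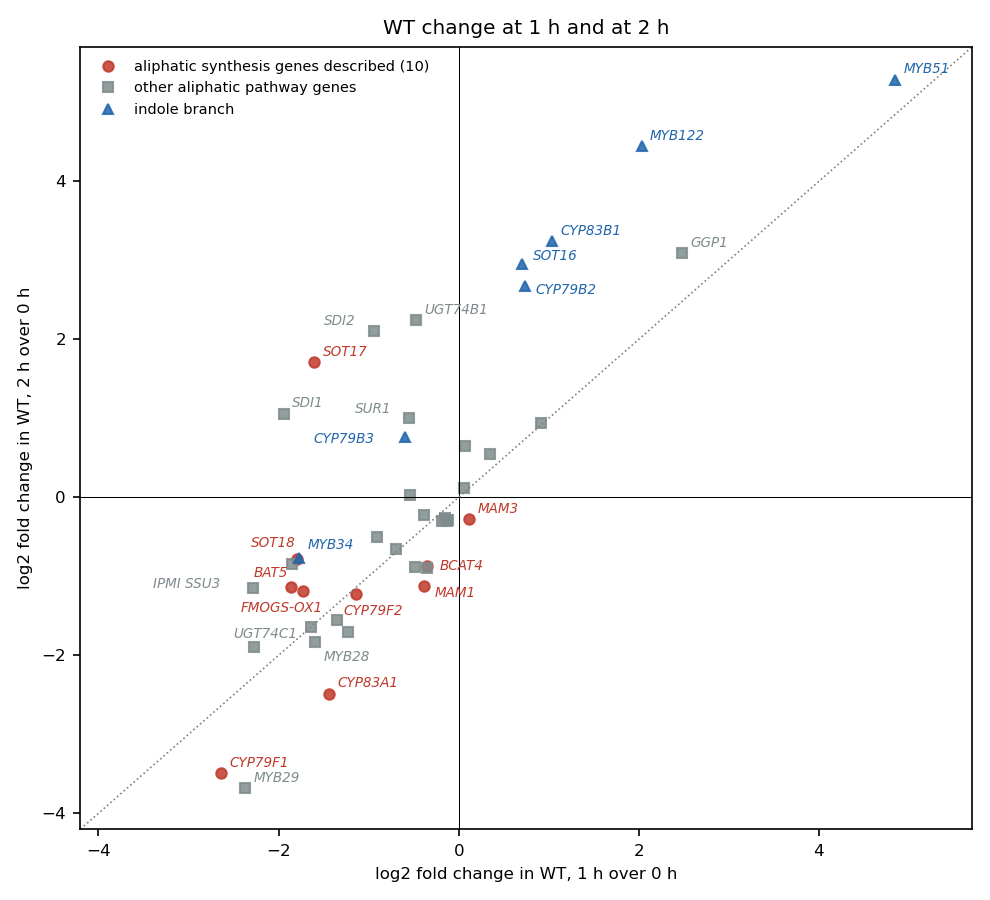
Log2 fold change against 0 h in WT at 1 h (x axis) and at 2 h (y axis) for the 10 genes (red circles), other genes of the aliphatic pathway (grey squares) and the indole branch (blue triangles), with the dotted diagonal of equal change. MYB76, near 0 counts when treated, is not drawn. CYP79F1, CYP83A1, MAM1 and BCAT4 lie below the diagonal, BAT5, SOT18 and FMOGS-OX1 above it and below 0, and SOT17 far above it at 1.71.

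The mutants gave similar counts against their own untreated seedlings. At 1 h the double mutant had 9 of 10 genes lower (all genes 32.7%), wrky18 had 8 (all genes 32%) and wrky40 had 9 (all genes 32.2%). At 2 h the double mutant had 9 lower (all genes 36.2%), wrky18 had 8 (all genes 36.5%) and wrky40 had 8 (all genes 36.1%), and in each of the 3 mutants SOT17 was the 1 gene that rose (all genes 36.3%, 36.8% and 37.2%). With total-count scaling the share of higher genes among those called in the mutants became 27.5% to 30.2% at 1 h, against 46.9% to 48.1% with TMM, and 33.2% to 36.5% at 2 h, against 50.0% to 50.7%. MAM3 was not called at 1 h in any genotype, though with total-count scaling it was called lower in the double mutant and in wrky40 (-0.37 and -0.30), and BCAT4 was not called at 1 h in wrky18 (-0.15, 95% interval -0.39 to 0.10) except with total-count scaling (-0.43, adjusted p = 0.00278). MAM1 at 1 h in wrky18 and BCAT4 at 1 h in the double mutant were called, by -0.29 and -0.28. The MAM1 call was lost without wrky18 0 h replicate 2 or any one wrky18 1 h library (adjusted p over all alternatives 0.000108 to 0.257). It was also lost with DESeq2 size factors (0.0769), no filter on low counts (0.0619), DESeq2 (0.0747) and only the groups compared (0.0786), all as adjusted p. The BCAT4 call was lost without any one 1 h library or the 0 h replicates 2 or 3 of the double mutant (6.11e-05 to 0.242). It was lost as well with DESeq2 size factors (0.0682), no filter on low counts (0.0517), DESeq2 (0.0667) and only the groups compared (0.0554).

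Ratios within a library show the split between related genes without any scaling between libraries. The CPM of SOT17 was 0.472 to 0.558 (median 0.520) times that of SOT18 over the 12 libraries at 0 h, 0.525 to 0.779 (median 0.630) at 1 h and 2.79 to 5.16 (median 3.54) at 2 h. No 2 h library came near the earlier range, in any genotype. The CPM of CYP79F1 was 1.12 to 1.83 (median 1.62) times that of CYP79F2 at 0 h, 0.328 to 0.798 (median 0.551) at 1 h and 0.213 to 0.457 (median 0.254) at 2 h. The treated libraries lay wholly below the untreated ones, and at 0 h the 3 ratios of the double mutant (1.13, 1.12 and 1.23) lay below all 9 of the other genotypes (1.52 to 1.83), a split seen in the data and not tested. For MAM1 and MAM3 the ratio was 1.10 to 1.77 (median 1.50) at 0 h, 0.888 to 1.33 (median 1.07) at 1 h and 0.658 to 0.927 (median 0.803) at 2 h. These ratios are of CPM and so also hold the genes' fixed difference in length, while their shifts over time do not.

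**Figure D4:**
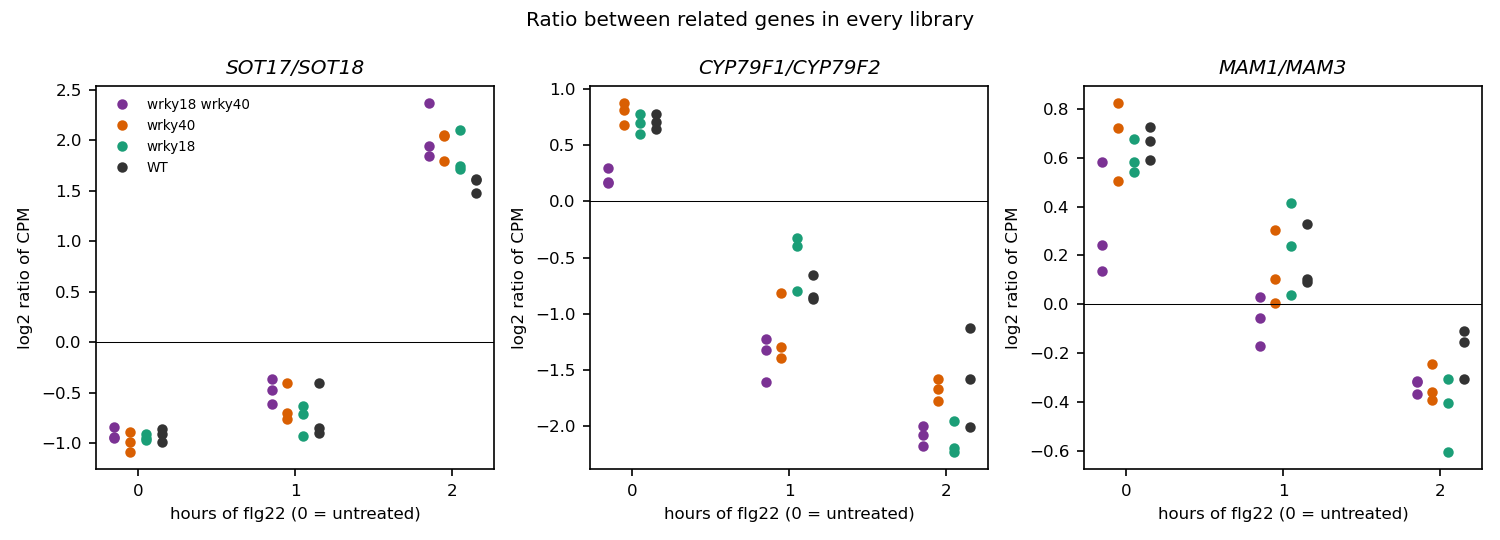
Within-library ratio of CPM for pairs of related genes, as log2, in all 36 libraries by time in hours, with genotype by colour and a line at equal CPM. The SOT17 to SOT18 ratio lies above the line at 2 h and below it before, while CYP79F1 to CYP79F2 and MAM1 to MAM3 fall with time.

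Few differences between the mutants and WT were detectable in the 10 genes. In 90 comparisons of a mutant with WT at the same time (3 mutants, 3 times, 10 genes), 1 was called by edgeR at an adjusted p below 0.05 and 18 had an unadjusted p below 0.05. Of all genes, 3.79% (wrky18 at 0 h) to 26.5% (double mutant at 2 h) had such a p in these comparisons. The log2 fold changes ran from -0.48 to 0.47, with 95% intervals reaching from -0.97 to 0.81. The call was MAM3 in wrky40 at 2 h, with 112, 123 and 121 CPM in wrky40 and 87.9, 91.9 and 89.8 CPM in WT. All wrky40 libraries lay above all WT ones, and the log2 fold change was 0.40 ± 0.11, adjusted p = 0.0387. The call was lost when any one of these 6 libraries was left out (adjusted p from 0.0506 to 0.146) and under total-count scaling (0.080), within 0.00368 to 0.146 over all alternatives. Without wrky40 2 h replicate 1 CYP79F2 and SOT17 were called higher instead, and without WT 2 h replicate 1 SOT17 alone. In wrky40 at 2 h 4.02% of all genes were called. All 10 genes had a positive log2 fold change there (median 0.31), and also in untreated wrky40 (median 0.26), where none was called by edgeR or DESeq2 (5 with an unadjusted p below 0.05, against 7.45% of all genes) and 0.332% of all genes were. At 1 h in wrky40 none of the 10 was called by edgeR or DESeq2, 1 had an unadjusted p below 0.05 (CYP83A1, -0.23 ± 0.11), and 2.23% of all genes were called. Of all genes, 50.2% and 50.4% had a positive value at 2 h and 0 h, and the 10 share the same libraries, so their signs are not independent.

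In the double mutant none of the 10 was called by edgeR at any time, while 2.56% of all genes were called at 0 h, 5.79% at 1 h and 14.2% at 2 h. Of the genes called, 53.1% were higher in the double mutant at 1 h with total-count scaling, against 69.0% with TMM, and 30.0% at 2 h, against 50.9%. The unadjusted p was below 0.05 for MAM3 at 0 h (0.35 ± 0.11) and 2 h (0.24 ± 0.11) and for SOT17 at 1 h (0.47 ± 0.15) and 2 h (0.29 ± 0.13). DESeq2 called MAM3 at 0 h and SOT17 at 1 h. SOT17 at 1 h had 14.6, 15.6 and 13.6 CPM in the double mutant and 10.1, 11.7 and 9.92 CPM in WT, with no overlap. In wrky18 none of the 10 was called by edgeR or DESeq2 at 0, 1 or 2 h (all genes 0.0234%, 0.117% and 0.103%), and 2 values at 2 h, those of CYP79F2 and MAM3, had an unadjusted p below 0.05, with none at 0 h or 1 h. The change from 0 h to 1 h or 2 h was compared between each mutant and WT in 60 interaction tests. This change holds any part of the fresh medium or the time of day along with that of flg22. None was called and 3 had an unadjusted p below 0.05 (all genes 2.87% to 12.8%), with estimates from -0.59 to 0.43, 95% intervals reaching from -1.16 to 0.98 and a smallest adjusted p of 0.498, and DESeq2 called none either. The largest was CYP79F1 at 1 h, whose change from 0 h in wrky40 minus that in WT was -0.59 (95% interval -1.16 to -0.03, adjusted p = 0.682). Of all genes, the share called in these interactions at 1 h and 2 h was 0.824% and 1.95% for the double mutant, 0% and 0% for wrky18, and 0.0937% and 0.215% for wrky40. The test for non-additivity, the double mutant against the sum of both single mutants, gave no call in 30 (all genes 0.0375% at 0 h and 0.0609% at 1 h) and 3 unadjusted p below 0.05, all at 2 h (all genes 11.3%) and all negative. DESeq2 called none. CYP79F2 had the largest value, -0.71 ± 0.20 (adjusted p = 0.126, all genes called 0.323%), and it was called without wrky40 2 h replicate 1 (-0.83, adjusted p = 0.0382, range over all alternatives 0.0320 to 0.318).

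**Figure D5:**
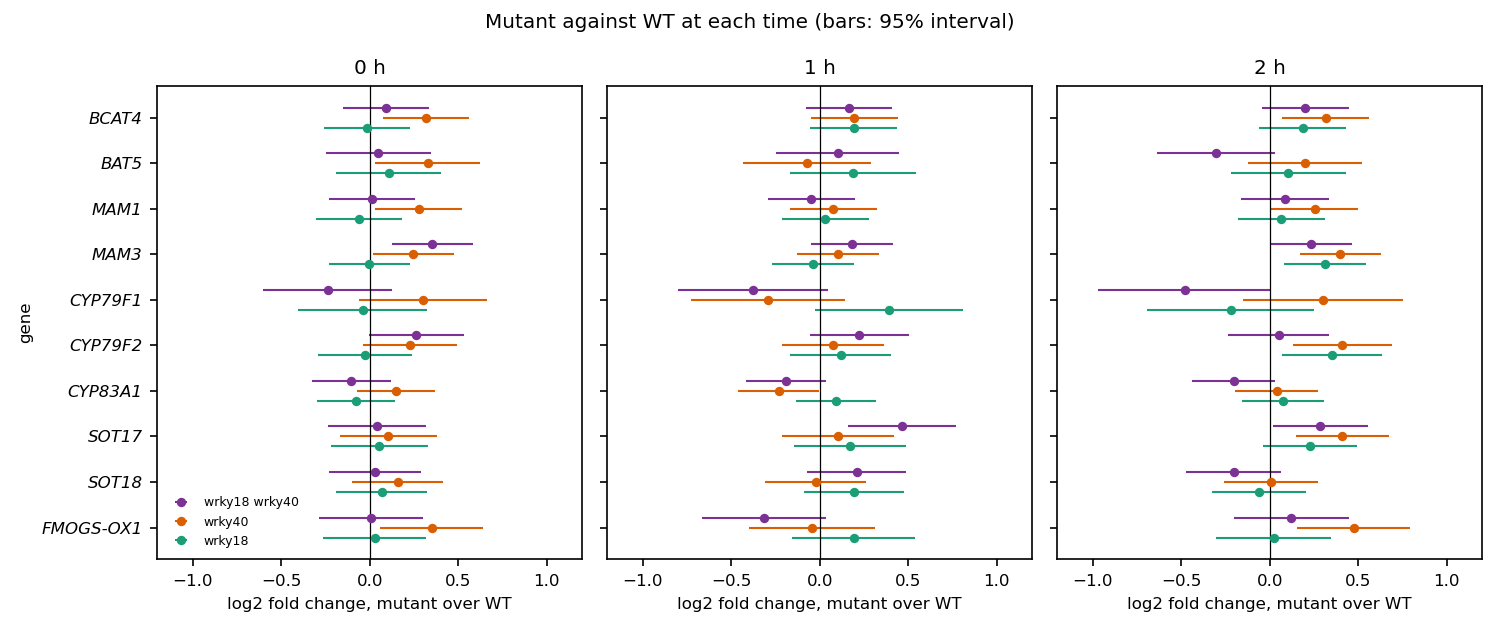
Log2 fold change of wrky18 wrky40, wrky40 and wrky18 against WT for the 10 genes at 0, 1 and 2 h, with 95% intervals. The values lie between -0.48 and 0.47, and the 1 call is MAM3 in wrky40 at 2 h.

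The other genes of the pathway were lower more often than higher at both times. Of 30 listed genes 29 had a row and 28 were tested. At 1 h in WT 19 were lower (all genes 32%), 3 higher (all genes 28.8%) and 6 not called, with a median log2 fold change of -0.54. At 2 h 16 were lower (all genes 35.1%), 8 higher (all genes 36.7%) and 4 not called, with a median of -0.30. The activator genes fell early: MYB28 had 35.7, 37.7 and 33.6 CPM at 0 h, 9.48, 15.0 and 11.0 CPM at 1 h and 11.8, 9.08 and 9.23 CPM at 2 h in WT, and every treated library lay below every untreated one. Its log2 fold change was -1.60 ± 0.14 at 1 h and -1.83 ± 0.14 at 2 h. MYB29 had 5.48, 5.73 and 5.81 CPM at 0 h, 0.895, 1.49 and 0.919 CPM at 1 h and 0.634, 0.291 and 0.427 CPM at 2 h, also without overlap between treated and untreated libraries. Its change was -2.37 ± 0.21 and -3.68 ± 0.23 at the same times. MYB76 was near the detection limit, with 17 counts over the 3 untreated WT libraries, 0 at 1 h and 1 at 2 h, so no fold is given. MYC2, a jasmonate-response factor that acts with the MYB activators, rose by 0.91 ± 0.11 at 1 h and 0.94 ± 0.11 at 2 h, and SDI2, a gene of the sulphur-deficiency response, had -0.94 ± 0.18 at 1 h and 2.11 ± 0.16 at 2 h.

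Among the other chain-elongation genes 3 of 5 were lower at 1 h (all genes 32%) and 5 of 5 at 2 h (all genes 35.1%). The isopropylmalate isomerase small subunits IPMI_SSU2 and IPMI_SSU3 changed by -1.23 ± 0.13 and -2.29 ± 0.18 at 1 h and by -1.71 ± 0.13 and -1.15 ± 0.17 at 2 h. The dehydrogenase gene IPMDH1 changed by -0.35 ± 0.12 and -0.89 ± 0.12. Its 1 h call was lost without WT 1 h replicate 1 (adjusted p = 0.161), WT 1 h replicate 3 (0.0561) or WT 0 h replicate 2 (0.0637) and with only the groups compared (0.0572). At 2 h the large subunit IPMI_LSU1 changed by -0.30 ± 0.06. Of the other core genes 5 of 6 were lower and 1 higher at 1 h (all genes 32% and 28.8%). At 2 h 3 were lower and 3 higher (all genes 35.1% and 36.7%). The 3 that were higher at 2 h were GGP1, SUR1 and UGT74B1, which also serve the indole branch: GGP1, which cleaves the glutathione conjugate, by 3.09 ± 0.12, the C-S lyase SUR1 by 1.01 ± 0.08 and the glucosyltransferase UGT74B1 by 2.24 ± 0.13. UGT74C1, the glucosyltransferase of the aliphatic branch, had 84.7, 100.2 and 91.5 CPM at 0 h, 25.7, 33.0 and 29.8 CPM at 1 h and 30.0, 28.3 and 30.1 CPM at 2 h in WT, and its change of -1.65 ± 0.11 at 1 h and -1.65 ± 0.11 at 2 h was in the direction of the P450 genes. Among the side-chain genes, FMOGS-OX3 and FMOGS-OX2 had -2.28 ± 0.17 and -1.35 ± 0.34 at 1 h. FMOGS-OX5 rose by 0.35 ± 0.08 at 1 h but was not called there with total-count scaling (0.08, adjusted p = 0.390). At 2 h FMOGS-OX5 was also called (edgeR adjusted p = 7.52e-07), and no alternative lost that call. The size and direction of its 2 h change are not given here. GS-OH, a side-chain hydroxylase, fell by 0.38 at 1 h. Of the glucosinolate transporters, GTR2 changed by -0.70 ± 0.11 and GTR1 by -0.54 ± 0.13 at 1 h. The myrosinase gene TGG1 was lower at 2 h (-0.31 ± 0.08) and TGG2 was not called at either time.

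Most of the listed indole-branch genes were higher over the same hours. Of its 7 listed genes 5 were higher and 2 lower at 1 h in WT (all genes 28.8% and 32%), and 6 were higher and 1 lower at 2 h (all genes 36.7% and 35.1%). At 2 h CYP79B2 rose by 2.67 ± 0.16, CYP79B3 by 0.77 ± 0.12, CYP83B1 by 3.24 ± 0.16 and SOT16 by 2.95 ± 0.13 on the log2 scale. Within a library, the CPM of CYP83B1 was 0.670 to 1.14 (median 0.949) times that of CYP83A1 at 0 h, 3.55 to 7.85 (median 5.67) at 1 h and 39.9 to 65.5 (median 50.6) at 2 h over the 12 libraries of each time. The 3 ranges were far apart. For SOT16 over SOT18 the ratio was 1.15 to 1.61 (median 1.46), 5.50 to 11.8 (median 7.19) and 16.8 to 26.7 (median 20.2).

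Several of these other genes were called between a mutant and WT. MYB28 at 2 h had 5.26, 5.73 and 6.36 CPM in the double mutant and 11.8, 9.08 and 9.23 CPM in WT, a log2 fold change of -0.78 ± 0.15, adjusted p = 0.000531 (edgeR). At that time none of the 10 genes was called there (all genes 14.2%), and 6 of them had a positive value (all genes 48.1%). Their median was 0.07, from -0.48 in CYP79F1 to 0.29 in SOT17. A link between MYB28 and the 10 genes was not tested. SDI2 was higher in the untreated double mutant (0.90 ± 0.16, adjusted p = 0.00173) and in wrky40 at 1 h (0.97 ± 0.18, adjusted p = 0.00212). TGG1 and TGG2 were lower in the untreated double mutant (-0.36 ± 0.08 and -0.62 ± 0.15). Both calls were lost without WT replicate 1 (adjusted p = 0.199 and 0.104), without double mutant replicate 1 (0.0648 and 0.0601) and without double mutant replicate 2 (0.0878 and 0.0749). That of TGG1 was also lost with only the groups compared (0.133). At 2 h TGG2 was lower in the double mutant as well (edgeR adjusted p = 0.0116), but not called without replicate 1 of WT (0.0553) or of the double mutant (0.0750). GTR1 was higher in wrky40 at 2 h (edgeR adjusted p = 0.00883), but not called without WT replicate 2 (0.0519). CYP79B2 of the indole branch was higher at 2 h in the double mutant (1.09 ± 0.15, adjusted p = 3.45e-06) and in wrky40 (1.05 ± 0.15, adjusted p = 2.2e-05).

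Over the 12 group means of log2 CPM, 6 of the 10 genes formed 3 pairs in which each was most like the other, given here as a description over groups that share time and genotype. BCAT4 was most like MAM1 (Pearson r = 0.984), BAT5 most like SOT18 (0.983) and CYP79F1 most like CYP83A1 (0.982). FMOGS-OX1 was most like BAT5 (0.979) and CYP79F2 most like CYP79F1 (0.934). CYP79F2 lay nearest to the mean course of the 10 (0.994). MAM3 was most like BCAT4 (0.662), and SOT17 was like none of them, with 0.416 to SOT18 and -0.640 to MAM1. The 8 genes outside the set that were most like its mean course were AT4G10910 (0.985), AT3G27027 (0.984), AK3 (0.982), AT3G23880 (0.981), AT2G38330 (0.980), AT3G01350 (0.980), TAO1 (0.980) and AT2G31790, which is UGT74C1 (0.979). A correlation above 0.9 to the mean course was held by 8.77% of all genes tested. Ranked by Spearman in place of Pearson correlation, the 8 genes most alike were all different ones.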

How the data were processed

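Polyadenylated RNA was sequenced from 36 libraries, and the values used are counts of reads per gene that the authors deposited in 1 table, not normalized. Reads were checked with FastQC 0.11.2, aligned to TAIR10 with TopHat2 2.0.10 and counted with HTSeq, per the submitters' processing notes. Libraries were made with a stranded kit, per the labels' protocols, while the strand setting and read filters of the counting are not given in the sources used here. Total counts per library ran from 17287229 to 38709715. Of 32678 genes, 6155 had no count in any library.

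Genes were kept by edgeR's filterByExpr over the 12 groups, which left 21356. All 36 libraries were fitted together in edgeR 4.0.16 (R 4.3.3) with TMM normalization, 1 mean per group, glmQLFit and glmQLFTest, with 24 residual degrees of freedom and a common biological coefficient of variation of 10.71%. The p-values were adjusted by Benjamini-Hochberg over all genes tested in each of 30 comparisons, with calls made where the adjusted value lay below 0.05. Standard errors and 95% intervals come from that fit. CPM used TMM-scaled library sizes, and the log2 CPM of the course comparison a prior count of 2. The fits were also run on simulated data in which 200 genes changed in the double mutant at 2 h and all others were level. That setting differs from these data, where most genes changed over time, so nothing above rests on it. Positions, exon lengths and upstream bases came from the RefSeq TAIR10.1 annotation, in which all 10 genes were found by locus identifier (MAM3 is IMS2 there).

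The members, the pathway lists and the tests were chosen with earlier results of these data known. The rule for named genes was all 10 in every comparison, but where few or none were called the text gives their range and names the called genes, those with an unadjusted p below 0.05 or the largest value. From the pathway list MYB28, MYB29, MYB76 and, per role, up to 4 genes with the smallest adjusted p in WT at 1 h or 2 h are named, and the 8 genes most like the mean course by Pearson correlation. AOP2 of the pathway list was not analysed here. Alternatives were size factors by median of ratios, total counts, no filter, a replicate block, DESeq2 1.42.0, only the groups compared, a Spearman correlation, and leaving out each library in turn.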

Additional observations from a re-analysis of the deposited data

How the results depend on the processing

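The 73 called changes of the 10 genes against 0 h, over 4 genotypes and 2 times, were recomputed under 876 combinations with an alternative. Of these 850 kept direction and call, 26 lost the call and 0 reversed. The calls lost were those of BCAT4, MAM1 and MAM3 named above. The number of genes called kept within 1.5 times in 169 of 180 other settings and 228 of 234 fits without a library. These totals include comparisons with 0 genes called in the main fit, where a count that stayed at 0 was held as kept. All 11 and 6 that moved were in comparisons of a mutant with WT or in the test for non-additivity. In wrky40 against WT at 2 h, where edgeR called 1 gene, 0 were called with total-count scaling and 3 each with the replicate block (MAM3, CYP79F2 and SOT17), DESeq2 (MAM3, SOT17 and FMOGS-OX1) and only the groups compared (MAM3, BCAT4 and FMOGS-OX1), and 0 to 2 without a library. Of all genes, 858 were called there in the main fit, and 986, 1412, 1201 and 1083 under these alternatives in the same order. In the double mutant against WT, where edgeR called 0, MAM3 was 1 call at 0 h with the replicate block and with DESeq2, SOT17 was 1 call at 1 h with the replicate block, DESeq2 and only the groups compared, and MAM3 was 1 call at 2 h with only the groups compared. Over all genes, calls at 0 h went from 547 in the main fit to 753 and 762 under these settings. At 1 h they went from 1237 to 1779, 1506 and 1949, and at 2 h from 3031 to 3426. For non-additivity at 2 h CYP79F2 was 1 call with the replicate block (-0.70), and 0 to 1 genes were called without a library. Of all genes, 139 were called there with the replicate block, against 69 in the main fit. Without a library the count ran from 7 to 9 in WT at 1 h, from 9 to 10 in WT at 2 h, and from 7 to 9 between 1 h and 2 h in the double mutant. BAT5 between 1 h and 2 h in the double mutant was called with only the groups compared (0.31, adjusted p = 0.0250). The same alternatives were applied to the listed pathway, indole and mutated genes, a choice made after seeing the data. The pathway genes called in WT ran from 20 to 25 at 1 h and from 24 to 26 at 2 h, and 7 indole genes were called at each time throughout. For the named ones, combinations of a result with an alternative were counted. Of those called over time in WT, 547 combinations kept direction and call and 5 lost it. Of those called between a mutant and WT, 270 combinations kept it and 18 lost it, and 0 reversed in either set. Of those not called in the main fit, 6 combinations over time in WT and 22 between a mutant and WT gained a call. The cause of these shifts was not tested.

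Replicate numbers were shared by all groups, but the labels do not say that a number marks a shared batch. The deviations of same-numbered libraries from their group means correlated by 0.14 on average over 198 pairs, and 127 of these pairs were above 0.1, the lowest being -0.03. Other pairs averaged -0.07, which largely follows from the same-numbered value because deviations were taken from group means, and is no separate comparison. Of 36 libraries 35 were closest to their own number, a hint from the data and not from the design. With Spearman in place of Pearson correlation, 0 of the 8 genes most like the mean course were shared.

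The genes had 90 to 7197 counts per library, and counting error weighs most at the lowest counts, which were those of CYP79F1. With 3 libraries per group the 95% interval of a difference between a mutant and WT had a median half-width of 0.27 on the log2 scale. These intervals are not adjusted for the number of genes tested, so this is not the smallest difference that could be called. Larger differences also went uncalled, such as SOT17 (0.47) at 1 h and CYP79F1 (-0.48) at 2 h in the double mutant.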
